A study of Homo sapiens with 6 samples.

Results

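Box H/ACA small nucleolar RNAs (snoRNAs) and small Cajal body RNAs (scaRNAs) were followed in 6 clones of KYSE150, a cell line long established from a human squamous carcinoma of the oesophagus. The set comprised every gene whose RefSeq symbol begins with SNORA or SCARNA, with host genes left out: 132 of the 40448 genes listed, 108 SNORA and 24 SCARNA. Per the labels, mock clones 1, 4 and 5 carried the pIRES2-EGFP vector and NCCRP1 clones 1, 6 and 17 a human NCCRP1 expression vector. All 6 clones thus share the parent line and a stable transfection, and each gave 1 library of ribosome-depleted total RNA, sequenced with Ion Torrent chemistry. Mock clones 1 and 4 and NCCRP1 clone 1 came from the run named 15 in the deposited data, and mock clone 5 and NCCRP1 clones 6 and 17 from run 14. A difference between groups rests on 3 clones against 3. A p-value weighs it against the spread between clones, in which library and run are not separated from the clone. No clone was sequenced more than 1 time.

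Box H/ACA RNAs fold into hairpins joined by a hinge that carries the H box, and end in a tail with the ACA box. Together with the proteins dyskerin, NOP10, NHP2 and GAR1 they guide the conversion of uridine to pseudouridine, in ribosomal RNA for most snoRNAs and in spliceosomal snRNAs for scaRNAs, which gather in Cajal bodies. In human cells most are cut out of the introns of host genes, many of which encode ribosomal or translation proteins or are noncoding snoRNA host genes.

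The sequences on which the results below turn are shown first. Capitals mark the letters ANANNA (the H box) nearest the middle of the sequence and the letters ACA (the ACA box) within 5 bases of the 3′ end, both read on the RNA's own strand. The sequences come from the GENCODE v29 transcripts and are written 5′ to 3′ with T for U. SCARNA8, SNORA28 and SNORA78 are shown because all their NCCRP1 values lay above all their mock values, SNORA57 because it had the highest mean level, SNORA7A and SNORA7B because they are near-identical, and SCARNA4 because its difference was among the largest.
SCARNA8: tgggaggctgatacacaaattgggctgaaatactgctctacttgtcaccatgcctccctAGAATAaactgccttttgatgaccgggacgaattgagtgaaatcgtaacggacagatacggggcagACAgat
SNORA28: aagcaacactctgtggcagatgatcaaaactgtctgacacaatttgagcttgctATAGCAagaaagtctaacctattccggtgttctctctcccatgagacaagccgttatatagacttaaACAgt
SNORA78: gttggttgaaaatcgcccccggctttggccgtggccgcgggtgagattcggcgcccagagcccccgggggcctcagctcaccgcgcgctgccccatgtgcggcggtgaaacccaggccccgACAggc
SNORA57: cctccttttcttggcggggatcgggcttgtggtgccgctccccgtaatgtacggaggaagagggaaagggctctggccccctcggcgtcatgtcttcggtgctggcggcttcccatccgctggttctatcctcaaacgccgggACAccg
SNORA7A: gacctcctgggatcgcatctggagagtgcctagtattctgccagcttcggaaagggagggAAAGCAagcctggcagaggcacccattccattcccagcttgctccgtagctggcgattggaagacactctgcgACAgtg
SNORA7B: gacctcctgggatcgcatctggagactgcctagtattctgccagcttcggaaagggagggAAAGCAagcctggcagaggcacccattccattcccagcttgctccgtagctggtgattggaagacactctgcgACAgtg
SCARNA4: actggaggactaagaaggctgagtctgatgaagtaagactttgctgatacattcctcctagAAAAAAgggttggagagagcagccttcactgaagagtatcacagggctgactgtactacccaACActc

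SNORA78 and SNORA57 are shown with an ACA box alone, because no ANANNA lay between 35% and 65% of their length. Both letter patterns were found in 88.0% of the 108 SNORA sequences and in 14 of 20 SCARNA sequences (70.0%), against 0.7% of 288 box C/D snoRNA (SNORD) sequences, which are shorter. The pattern is short, and a match is a description of letters only. The scaRNA family is itself mixed: SCARNA2, SCARNA7, SCARNA9 and SCARNA17 are box C/D type guides for 2′-O-methylation, and SCARNA5, SCARNA6, SCARNA10 and SCARNA12 carry both kinds of domain. SNORA7A and SNORA7B were 98.6% identical and differed by the substitutions G26C and C114T, with SNORA7A's base first and positions counted from its 5′ end, so reads of either could be placed on the other.

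Of the 132 genes, 110 were listed above 0 in at least 1 library and 102 in all 6. The 6 libraries listed 104 to 108 of them, and 12477 to 12821 genes of any kind, at an estimated 12290000 to 18070000 reads. A listed 0 stood for less than 1 RPKM (reads per kilobase of gene, scaled to library depth) or for no estimate. The 22 genes listed at 0 everywhere included SNORA73A and SNORA73B, which encode the abundant U17 RNA that acts in pre-ribosomal RNA cleavage. They also included SNORA3A, SNORA3B, SNORA17A, SNORA17B, SNORA36A and SNORA56, so a 0 here is not a measurement of absence. Of these 22 genes, 12 had another member at least 85% identical in sequence, against 19 of the 98 that were listed in every library and had a sequence. An exon of a longer gene on the same strand overlapped 10 of the 22 and 38 of the 98 with a sequence, so such overlap was about as common in both. The part of the counting rule in the listed zeros was not tested.

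NCCRP1, as the check of the labels, had no value above 0 in any mock clone. In NCCRP1 clones 1, 6 and 17 its log2 RPKM was 6.19, 8.07 and 6.71 (limma adjusted p = 0.00449). Of 10 squamous markers, 9 (KRT5 and TP63 among them) were above 0 in every library, and SOX2 in all but NCCRP1 clone 6. Of 9 markers of fibroblasts, endothelium and leukocytes, 7 were listed at 0 in every library, CDH5 had a value in 1 clone, and the collagen gene COL1A1 lay between 1.32 and 2.57. The squamous markers had a median log2 difference of -0.339, with 8 of 10 lower in mean and 0 called, beside 0.102% of all genes tested. KRT15 (-1.43) and PKP1 (-0.31) were lower in all NCCRP1 clones than in all mock clones. The simple epithelial keratins KRT7, KRT8 and KRT18 did not overlap between the groups and were higher with NCCRP1 by 0.399 to 1.16, with a lowest limma adjusted p of 0.341. Of all genes tested, 5.71% had all NCCRP1 clones above all mock clones and 7.05% had them below. The part of these markers in the small RNA values was not tested.

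No H/ACA or Cajal body RNA passed the test between NCCRP1 and mock clones. Of 106 tested (above 0 in at least 3 libraries), 0 were called higher and 0 lower by limma at an adjusted p under 0.05. Over all 12737 genes tested, 0.0707% were called higher and 0.0314% lower, or 0.102% in either direction. At an unadjusted p under 0.05 there were 2 members, SCARNA8 and SNORA28, where 7.33% of all genes lay under that value. All NCCRP1 clones were above all mock clones for 3 members and below them for 0, beside 5.71% and 7.05% of all genes, and neither count exceeds that background. The standard error of a member's log2 difference had a median of 0.27 and ran from 0.17 to 0.65, and 97 of the 106 differences lay within 0.5 of 0. The median difference was 0.109, with 74 members higher and 32 lower in mean, beside a median of -0.016 and 46.7% higher over all genes. That median rested on single clones: it was 0.021, 0.047 and 0.277 without mock clones 1, 4 and 5, and -0.026, 0.26 and 0.063 without NCCRP1 clones 1, 6 and 17.

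Clone values below are in the order mock clones 1, 4 and 5, then NCCRP1 clones 1, 6 and 17, in log2 RPKM. SCARNA8 (Entrez 677776), the U92 scaRNA that guides a pseudouridine in U2 snRNA, had the lowest p. Its values were 3.90, 3.04 and 3.37, then 4.79, 4.39 and 4.35, and the groups did not overlap. The log2 difference was 1.07 (SE 0.22), or 2.10-fold, with a limma adjusted p of 0.132. It was 1.32 within run 15 and 1.00 within run 14. This RNA was scarce, with 13.7 to 65.3 estimated reads per library, so counting error is part of its spread. Its host HAUS6, a subunit of the augmin complex of the mitotic spindle, was at 1.14, 1.37 and 1.41, then 1.47, 1.49 and 1.18, a difference of 0.07.

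SNORA28 (Entrez 677811) lies in an intron of EIF5, a translation initiation factor gene. It stood at 8.24, 8.24 and 7.98, then 8.82, 8.35 and 8.76, with NCCRP1 clone 6 nearest the mock clones. The difference was 0.49 (SE 0.20, limma adjusted p = 0.592), and 0.58 and 0.57 within runs 15 and 14. EIF5 itself differed by 0.04. SNORA78 (Entrez 677844), overlapped by exons of its noncoding host SNHG9, was at 5.99, 6.82 and 6.80, then 7.37, 6.83 and 6.95. The gap between mock clone 4 and NCCRP1 clone 6 was thus the smallest that the 2 decimals allow. Its difference was 0.51 (SE 0.24, limma adjusted p = 0.683), with 0.96 within run 15 and 0.09 within run 14, beside 0.24 for SNHG9.

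The next members by p overlapped between the groups and followed individual clones. SCARNA4 (Entrez 677771), an H/ACA scaRNA, was at 5.54, 6.36 and 6.41, then 7.10, 6.14 and 7.25, so NCCRP1 clone 6 lay among the mock clones. Its difference was 0.73 (SE 0.33, limma adjusted p = 0.683). The two-sided exact permutation test gave p = 0.3, in a design whose 20 splits allow no p under 0.1. SNORA81, 1 of 3 members of the set within the helicase gene EIF4A2, was at 7.86, 8.42 and 8.93, then 9.66, 8.28 and 9.56. The difference of 0.76 (SE 0.39, limma adjusted p = 0.749) was 1.51 within run 15 and -0.01 within run 14. SNORA32 (6.35, 6.49 and 7.60, then 7.79, 6.86 and 7.97) showed the same 3 high clones: mock clone 5 and NCCRP1 clones 1 and 17. SNORA16A, SNORA11B, SNORA14B, SNORA5B and SNORA53 differed by 0.48, 0.39, 0.38, 0.43 and 0.46, with adjusted p-values from limma of 0.758 to 0.824. SNORA70B, the lowered one of the 12 with the lowest p, was listed at 0, 0.60 and 1.93, then 0.28, 0 and 0.25, near the bottom of the measured range.

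SNORA19, in the translation initiation factor gene EIF3A, had the widest range after SNORA57 among the snoRNAs above 0 in every library. It was at 4.59, 4.74 and 5.99, then 5.05, 3.98 and 5.58, so the highest value was in mock clone 5 and the lowest in NCCRP1 clone 6. Its difference was 0.38 within run 15 and -1.21 within run 14. EIF3A itself was at 4.90, 4.66 and 4.61, then 4.64, 3.88 and 4.79. The host was thus also lowest in NCCRP1 clone 6, but highest in mock clone 1.

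The set spanned a wide range of expression, from 2 to 38383 estimated reads per library for a member. Of the 102 RNAs above 0 in all libraries, 13 had a mean log2 RPKM under 5, 29 between 5 and 8, 47 between 8 and 11, and 13 above 11. Their summed level was 96068, 96733 and 130056 RPKM in the mock clones. With NCCRP1 the summed level was 112401, 87068 and 119218 RPKM, and the groups overlapped. That was 8.4% to 10.5% of all summed RPKM, of which SNORD genes held 45.8% to 60.0%. The 10 most abundant members held 46.5% to 56.3% of the set's RPKM.

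SNORA57 (Entrez 692158) had the highest mean and an unusual low value. It stood at 14.02, 13.57 and 13.98, then 11.93, 13.35 and 14.07, so NCCRP1 clone 1 was low by more than 1 log2 unit and NCCRP1 clone 17 was the highest of the 6. With 10518 estimated reads even in the lowest library, counting error is small beside this gap. The group difference was -0.74 (SE 0.50, limma adjusted p = 0.846; exact permutation p = 0.4), -1.86 within run 15 and -0.27 within run 14, and it was -0.147 without NCCRP1 clone 1. Its host CSKMT, a mitochondrial methyltransferase gene, was at 3.12, 3.22 and 2.52, then 3.30, 2.02 and 3.19, and was not low in NCCRP1 clone 1. Annotated exons of a gene on the same strand overlap SNORA57.

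SNORA7A, from an intron of the ribosomal protein gene RPL32, was at 12.58, 12.69 and 13.83, then 13.16, 12.97 and 13.19. The near-identical SNORA7B ran in parallel at 11.82, 12.01 and 12.62, then 12.23, 12.05 and 12.30. Mock clone 5 was the highest for both, and the group differences were 0.07 and 0.04. SNORA4, from EIF4A2, peaked in the same clone, at 11.85, 12.03 and 13.29, then 12.34, 11.98 and 12.58. So did SNORA67, from the paralogous helicase gene EIF4A1, at 11.31, 11.29 and 12.43, then 11.46, 11.11 and 11.60. SNORA44 was at 12.38, 12.92 and 13.18, then 13.09, 12.75 and 13.37, with mock clone 1 the lowest. SNORA31, SNORA71D, SNORA10 and SNORA64, between 11.01 and 12.57 in every clone, were instead highest in NCCRP1 clone 1. SNORA31 lies in TPT1, a gene used by every cell that was listed at 0 in all libraries, so no host level can be set beside it. None of these 9 RNAs differed between the groups by more than 0.33.

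**Figure D1:**
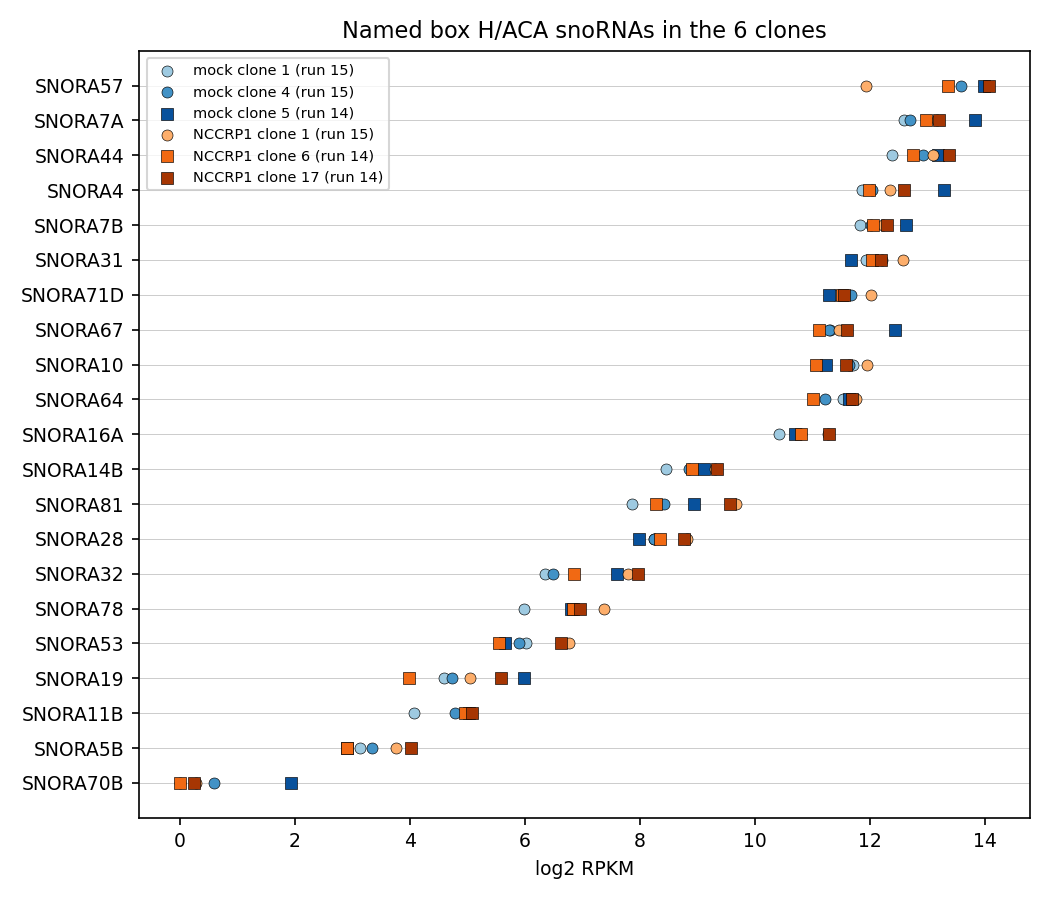
Log2 RPKM (horizontal axis) of the named box H/ACA snoRNAs, ordered by mean level, with 1 point per clone, circles for run 15 and squares for run 14, blue for mock and orange for NCCRP1. Mock and NCCRP1 points interleave in most rows, SNORA57 has a single low point at 11.93 in NCCRP1 clone 1, and SNORA28 has all orange points to the right of the blue ones.

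Among the scaRNAs, 22 of 24 were above 0 in all libraries. SCARNA2 (Entrez 677766), a box C/D type guide for U2 snRNA with its own promoter, was the most abundant at 11.16, 10.84 and 10.04, then 10.80, 10.34 and 10.51. Mock clone 5 was its lowest library, the reverse of SNORA7A, and the group difference was -0.13. The mixed guides SCARNA6, SCARNA10, SCARNA12 and SCARNA5 had differences of 0.12, 0.28, 0.20 and -0.04, and the C/D type guides SCARNA7, SCARNA9 and SCARNA17 of 0.19, 0.03 and 0.30. SCARNA16 was the steadiest of all members, between 9.30 and 9.54. SCARNA20 (10.01, 8.39 and 9.79, then 10.04, 9.18 and 9.63) was set apart by a low mock clone 4.

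SCARNA13 aside, the scaRNAs with the widest ranges were scarce ones. SCARNA14, in the replication fork gene TIPIN, ran from 3.04 in mock clone 1 to 5.43 in NCCRP1 clone 17. SCARNA18 ran from 2.52 in mock clone 1 to 4.83 in mock clone 5, so both ends of its range lay in the mock group. SCARNA15 was at 0, 0 and 2.16, then 0.35, 1.23 and 1.49. SCARNA1, SCARNA3, SCARNA9L, SCARNA11, SCARNA21, SCARNA22, SCARNA23 and SCARNA27 had differences from -0.23 to 0.44, none with a limma adjusted p under 0.824.

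SCARNA13 (Entrez 677768), the tandem H/ACA RNA U93, stood outside the test. It was at 9.02 and 9.28 in mock clones 1 and 4, with at least 1760 estimated reads each, and listed at 0 in mock clone 5 and all 3 NCCRP1 clones. Its RefSeq position lies inside that of SNHG10, a noncoding snoRNA host gene, by start and end alone, without strand or exons compared. In GENCODE v29 no same-strand host was found for SCARNA13, nor a same-strand exon of a longer gene overlapping it. SNHG10 was at 6.41, 6.70 and 7.82, then 7.75, 7.65 and 7.94. SNHG10 was thus lowest in exactly the 2 libraries in which SCARNA13 had a value (NCCRP1 minus mock 0.80, SE 0.32, limma adjusted p = 0.595). Both of those libraries came from run 15, as did NCCRP1 clone 1, in which SCARNA13 was listed at 0; the part of the run was not tested. Whether the same reads were assigned to SCARNA13 in some libraries and to SNHG10 in others was not tested, and no fold is given.

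**Figure D2:**
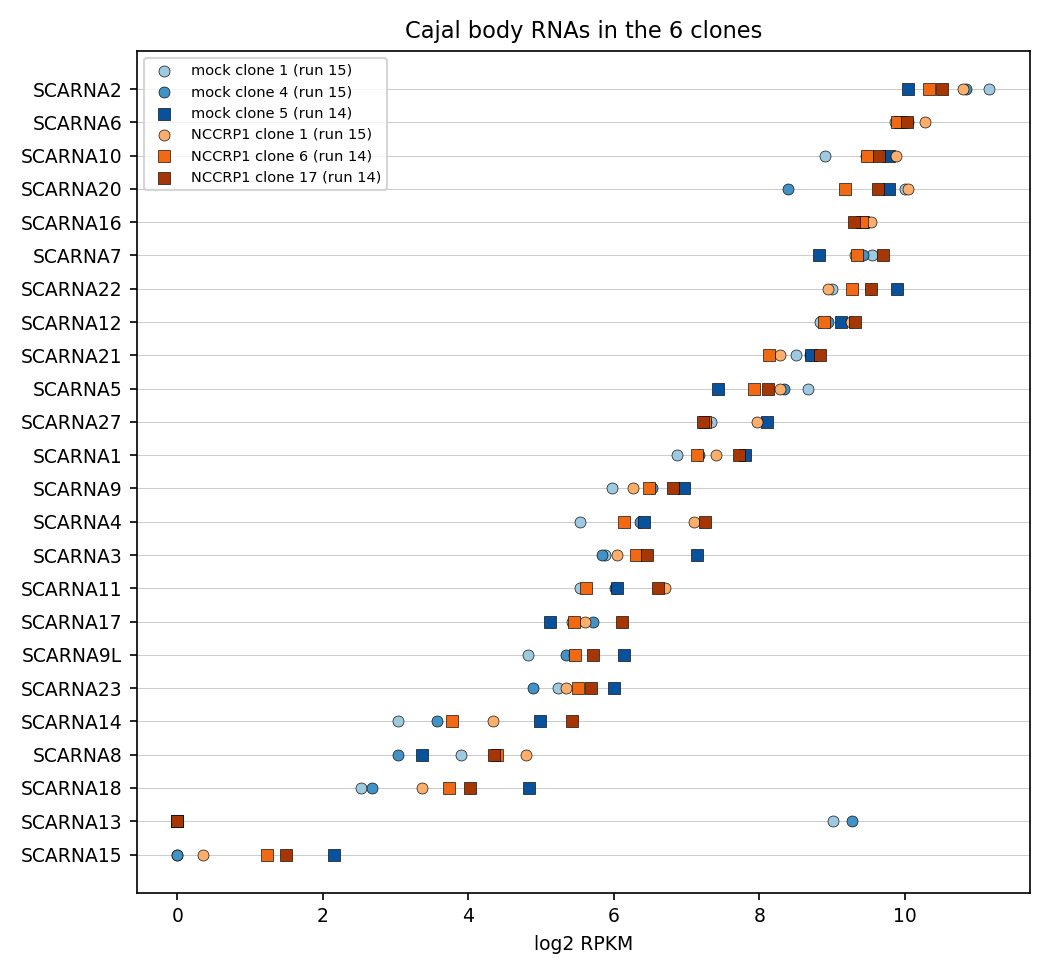
Log2 RPKM (horizontal axis) of the 24 Cajal body RNAs, ordered by mean level with those listed at 0 in any library last, with 1 point per clone, circles for run 15 and squares for run 14, blue for mock and orange for NCCRP1. SCARNA8 has its 3 orange points to the right of all blue ones, SCARNA16 spans only 0.24, and SCARNA13 is near 9 in 2 mock clones and at 0 in the other 4 clones.

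The larger pattern was shared between clones of both groups. For each RNA above 0 in all libraries, its deviation from its own mean over the 6 libraries was taken. The median deviation was -0.216, -0.147 and 0.245 for mock, then 0.293, -0.276 and 0.175 for NCCRP1. High and low clones thus occurred in each group and in each run. Mock clone 5 held the highest value of 40 of the 102 RNAs, NCCRP1 clone 1 of 39 and NCCRP1 clone 17 of 21. Mock clone 1 held the lowest value of 37, NCCRP1 clone 6 of 30 and mock clone 4 of 19. Over all 11927 genes above 0 in all libraries the same medians lay between -0.027 and 0.049, so the all-gene medians were not shifted in this way. Mock clone 5 held the highest value most often there too, for 3539 genes, against 1610 for NCCRP1 clone 1 and 2052 for NCCRP1 clone 17. Mock clone 1 again held the lowest most often, for 2549 genes, against 1862 for NCCRP1 clone 6 and 1070 for mock clone 4.

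The box C/D snoRNAs, which differ in structure and proteins but share the route through introns, had medians of -0.558, 0.011 and 0.357, then 0.191, -0.122 and 0.228. Their order of clones was similar at the top and differed at the bottom, where mock clone 1 stood far lower than NCCRP1 clone 6. Both classes are short RNAs, and the part of RNA length in these medians was not tested between the classes. Estimated depth was 12290000, 12690000 and 15960000 reads in the mock clones, then 18070000, 15860000 and 14570000 reads. The deepest library, NCCRP1 clone 1, had the highest H/ACA median and both of the shallowest had negative ones, while NCCRP1 clone 6, close in depth to mock clone 5, had the lowest. The part of depth in these medians was not tested.

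**Figure D3:**
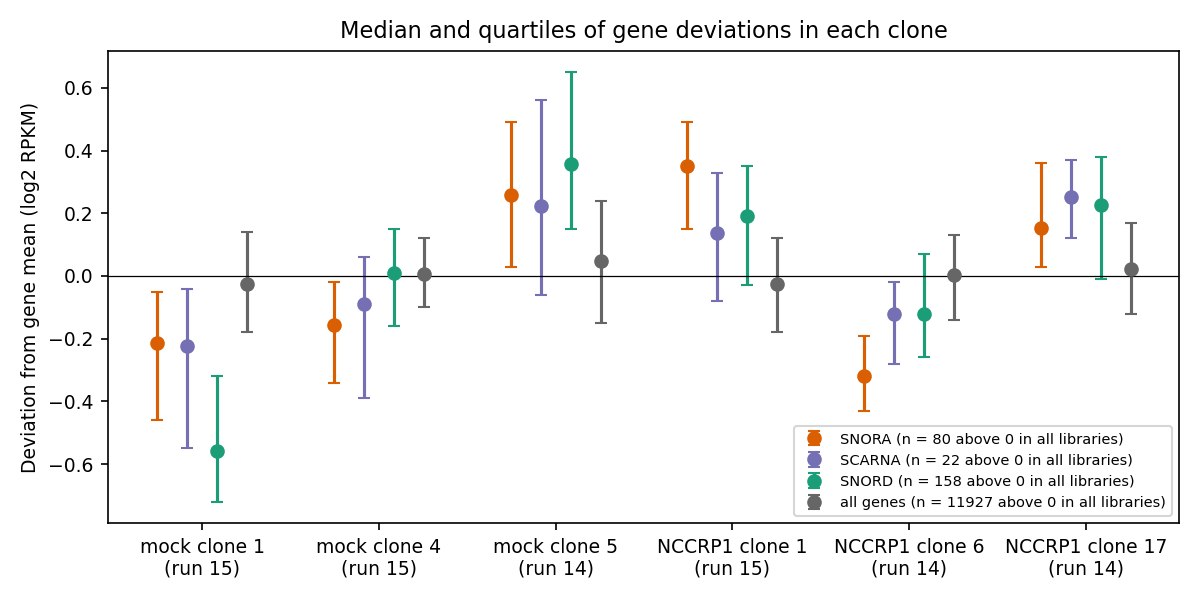
Median deviation from each gene's mean over the 6 libraries (log2 RPKM, points) with quartiles (bars) in each clone, for 80 SNORA, 22 SCARNA, 158 SNORD and all 11927 genes above 0 in every library. The SNORA and SCARNA medians are above 0 in mock clone 5 and NCCRP1 clones 1 and 17 and below 0 in the other 3 clones, while the all-gene medians stay between -0.027 and 0.049.

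The pairing of clones reflected the same order. Over the 102 RNAs the median absolute difference was smallest between mock clone 4 and NCCRP1 clone 6, at 0.21, although they differ in both group and run. It was largest, 0.66, between mock clones 1 and 5, of the same group but of different runs. A member's range over the 6 libraries had a median of 1.025 and was above 1 for 51 of 102. For the 37 RNAs with at least 1000 estimated reads in every library, counting error alone corresponds to an SD of at most 0.046. Their median SD was 0.36 among mock clones and 0.29 among NCCRP1 clones, so the spread between clones was far above counting error. In contrast, 14 members had under 20 estimated reads in a library, where counting error matters.

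Because of this order the comparison turned with the run. Within run 15, NCCRP1 clone 1 against mock clones 1 and 4, the median difference was 0.501 and 94 of 106 members were higher. Within run 14, NCCRP1 clones 6 and 17 against mock clone 5, it was -0.301 and 24 were higher. A positive difference in run 15 with a negative one in run 14 was found for 74 of the 106 members (69.8%), for 101 of 171 SNORD genes (59.1%) and for 25.8% of all genes. Only 20 members (18.9%) were higher within both runs, beside 21.7% of all genes. SCARNA8, SNORA28 and SNORA78 were among them by necessity, because all their NCCRP1 clones lay above all their mock clones. Each run held 1 clone of one group against 2 of the other, so run and single clones cannot be told apart in these differences.

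**Figure D4:**
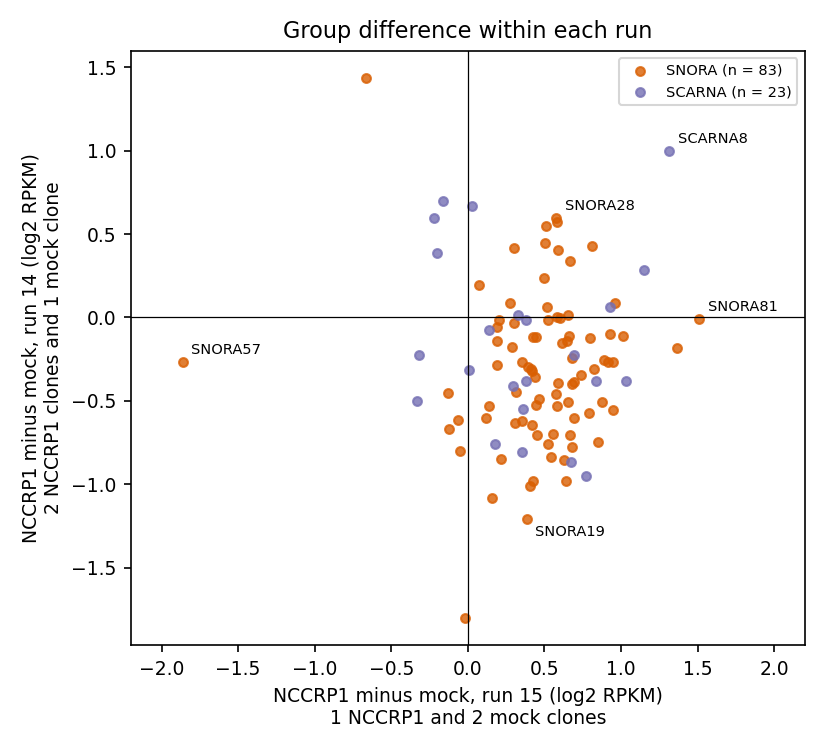
NCCRP1 minus mock difference (log2 RPKM) of each of the 106 tested RNAs within run 15 (horizontal axis, 1 NCCRP1 and 2 mock clones) and within run 14 (vertical axis, 2 NCCRP1 clones and 1 mock clone). Most points, 74 of 106, lie in the lower right quadrant, higher in run 15 and lower in run 14. SCARNA8 and SNORA28 lie in the upper right, where any member with all NCCRP1 clones above all mock clones must fall.

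The clone pattern was not uniform over the set. In mock clone 5, the 82 RNAs shorter than 150 bases had a median deviation of 0.287 and the 13 of 200 bases or more a median of -0.068, with these length classes chosen after the values were seen. Across 98 members with a sequence, the correlation of the deviation with log2 length was -0.33 in mock clone 5 and 0.25 in mock clone 1, and with GC content 0.29 in mock clone 1 and -0.19 in NCCRP1 clone 1. These correlations are weak, run across genes of the same libraries and are given as descriptions. The 4 C/D type scaRNAs, among the longest members, had a median deviation of -0.50 in mock clone 5, whereas the 14 scaRNAs outside the C/D and mixed types were at 0.50. Long members did not all run the same way. SCARNA2, SCARNA7 and SCARNA17 had their lowest value in mock clone 5, whereas SCARNA9, also of C/D type, had its highest there (6.96). So did its relative SCARNA9L (6.14), which is counted among the 14. SNORA74B was lower in mock clone 5 (7.94) than in the other mock clones (8.90 and 8.53), and SNORA74A was higher (7.40 against 7.22 and 6.74).

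Members were next set beside their host genes. A host on the same strand, tested as well, was found for 96 RNAs in 76 host genes. Of these hosts 0 were called by limma, beside 0.102% of all genes tested. In 50 of the 96 pairs the member and its host differed between groups in the same direction, and their differences correlated at r = 0.22 over these pairs, some of which share a host. The small RNA stood above its host in 85 of 96 pairs, by a median of 2.63 log2 units on the per-length RPKM scale. That gap is in level, not in the difference between groups.

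Several hosts carry more than 1 member. TAF1D, which encodes a subunit of the RNA polymerase I factor SL1, holds SNORA1, SNORA8, SNORA18, SNORA25, SNORA32 and SNORA40, whose mean levels ran from 4.90 to 10.36. Their median deviations were -0.54, -0.25 and 0.44, then 0.38, -0.34 and 0.31, while TAF1D itself was at 4.56, 4.76 and 4.80, then 4.71, 4.52 and 5.20. Mock clone 5 and NCCRP1 clones 1 and 17 were again the high ones for the median of the small RNAs, and for the host only NCCRP1 clone 17 stood out. Not every member followed: SNORA1 was at 4.63 in mock clone 5 and 5.29 in mock clone 4. SNORA25 was at 9.95 in mock clone 4 and 9.79 in NCCRP1 clone 17. The median of the 4 SNORA71 genes of SNHG17 departed from this order: it was highest in NCCRP1 clone 1 (0.47) and at -0.17 in mock clone 5. SNORA71B alone kept to the order, with 10.95 in mock clone 5, its highest, and 10.71 and 10.63 in NCCRP1 clones 1 and 17. SNHG17 itself was highest in mock clone 1, at 6.53, and lowest in NCCRP1 clone 6, at 5.73. The 4 copies are related in sequence, so their values are not independent.

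In EIF4A2 the 3 members of the set had differences of -0.09 (SNORA4), -0.15 (SNORA63) and 0.76 (SNORA81), although they come from the same transcript. EIF4A2 itself was at 5.94, 5.88 and 6.12, then 6.51, 6.47 and 6.58, a difference of 0.54 that did not pass. All its NCCRP1 clones were above all its mock clones, as for 5.71% of all genes tested. SNORA16A, SNORA44 and SNORA61 of SNHG12 had differences of 0.48, 0.24 and 0.36, against -0.01 for SNHG12. SNORA5A, SNORA5B and SNORA5C of TBRG4 had a median difference of 0.07 and spanned mean levels of 3.34 to 8.33. SNORA10 and SNORA64 of the ribosomal protein gene RPS2 had near-equal means of 11.52 and 11.47 and differences of 0.00 and 0.02.

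**Figure D5:**
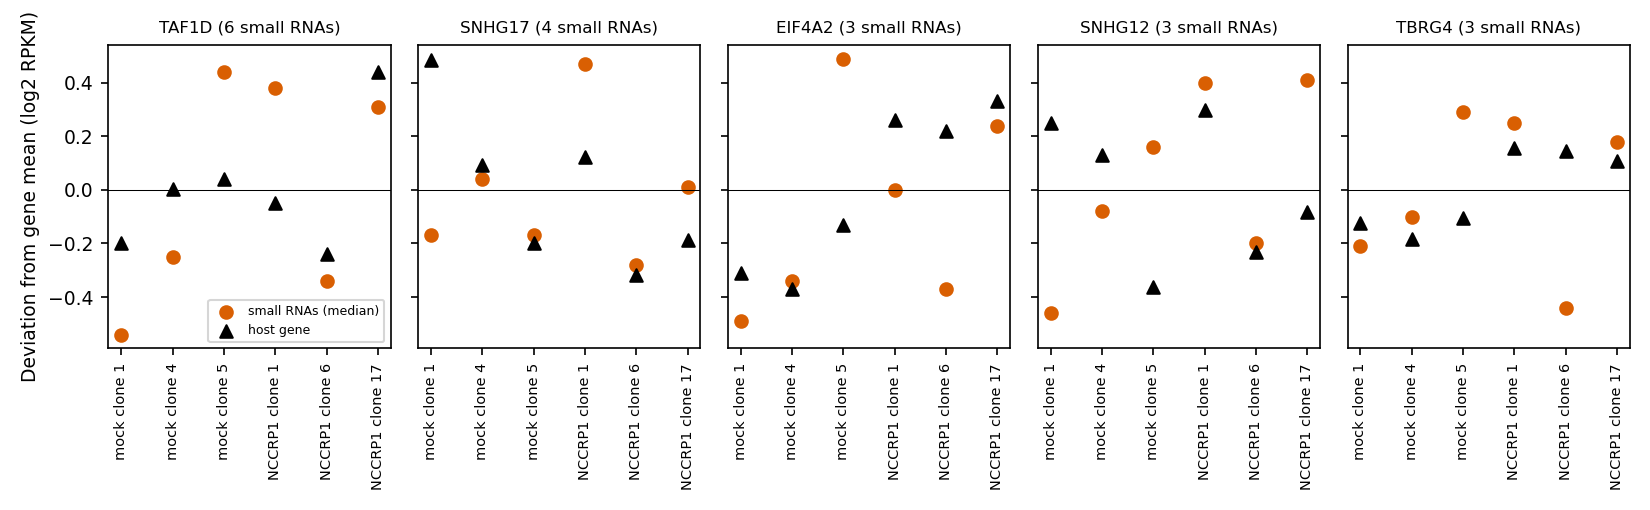
Deviation from the mean over the 6 libraries (log2 RPKM) in each clone, for 5 host genes (black triangles) and the median of the small RNAs they hold (orange circles). For TAF1D the small RNA median is at 0.44 in mock clone 5 and -0.54 in mock clone 1 while the host varies less between those clones. For SNHG17 the small RNA median is highest in NCCRP1 clone 1.

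The genes of the proteins that bind and process these RNAs were also compared. Of these 0 were called, beside 0.102% of all genes tested. The H/ACA core protein genes DKC1 (dyskerin, the pseudouridine synthase), NOP10, NHP2 and GAR1 had differences of 0.04, -0.23, 0.13 and -0.14, at limma adjusted p of 0.92 or more. DKC1 was at 5.46, 5.30 and 5.49, then 5.48, 5.61 and 5.28, nearly level in all clones. The 7 assembly genes had a median difference of 0.025. Among them NAF1, which loads the nascent RNA in place of GAR1, was at 2.12, 1.98 and 2.60, then 1.84, 1.96 and 1.81, without overlap (difference -0.36, SE 0.21, limma adjusted p = 0.782). All NCCRP1 clones lay below all mock clones for 7.05% of all genes tested. SHQ1, a dyskerin chaperone, differed by 0.10. The 22 tested of 24 genes listed for Cajal bodies and scaRNA trafficking also had a median of 0.025. Of these, COIL, the Cajal body scaffold, differed by -0.02 and WRAP53, which binds the Cajal body localisation signal, by -0.06. The 18 tested of 19 processing and decay genes had a median of 0.011, with 10 higher and 8 lower. In the other direction from NAF1, GEMIN4 of the trafficking list (0.19) and EXOSC8 of the decay list (0.15) did not overlap. All NCCRP1 clones lay above all mock clones for 5.71% of all genes.

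Telomerase RNA, TERC, ends in an H/ACA domain and binds the same 4 proteins. It was at 6.80, 6.51 and 6.55, then 6.62, 5.97 and 6.04, with NCCRP1 clone 1 among the mock clones. Its difference was -0.41 (SE 0.19, limma adjusted p = 0.683). Spliceosomal snRNAs are the targets of scaRNAs. Of 100 snRNA symbols, most of them pseudogenes, 95 were listed at 0 in every library. The minor spliceosome RNAs RNU11, RNU12, RNU4ATAC and RNU6ATAC, and RNU6-6P, were above 0 in all libraries and differed by -0.06, 0.13, 0.43, -0.29 and 0.19. RNU4ATAC was at 7.21, 7.14 and 6.84, then 7.86, 7.22 and 7.39, without overlap between the groups (limma adjusted p = 0.683). Such a rise without overlap was found for 5.71% of all genes tested.

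Genes whose levels ran most like those of the leading members were also listed, over 6 libraries and 11927 genes. For SNORA57 they were PAQR5, LMNB1 and ARHGAP35, at Pearson r of 0.996, 0.994 and 0.989. For SCARNA2 they were GALNS, ENTR1 and FBXO31, at 0.993, 0.992 and 0.991. With 6 points and so many genes, values of this size are to be had for many patterns, and they are given as a description only.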

How the data were processed

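RNA from 6 KYSE150 clones, 1 library each, was analysed from the values that the authors deposited. The submitters' processing notes name hg19 and bedtools 2.25.0 without roles; the aligner, the counting rule and the use of strand were not given in the sources used here. The file headers name RPKM, but the deposited values fit log2 RPKM: reversed and multiplied by transcript length they summed to 1133000 to 1150000 per library, against at least 11500000 for natural logarithms. Genes under 1 RPKM were listed as 0. No pseudocount was added.

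Depth came from microRNA genes, whose low values rose in steps of 1 read, in a search from 10000000 to 20000000 reads. Of values under 8 steps, 23.4% to 33.1% were within 0.005 of whole steps, too few to recover counts. Chance gives 1% at a depth fixed beforehand. The depth kept was the one with the highest share in the search, for which chance gives more. Read numbers are therefore estimates and cover counting error only.

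Groups were compared with limma 3.58.1 in R 4.3.3 (trended, robust, group as the sole term, two-sided) over 12737 genes above 0 in at least 3 libraries, adjusted by Benjamini-Hochberg, and called at an adjusted p under 0.05. The procedure was tested on simulated data. Alternatives changed the filter, pseudocount, treatment of listed zeros, robust option, scaling, run term and clones. The symbols of 37997 gene IDs came from RefSeq (GRCh38.p14), and sequences and hosts from GENCODE v29, matched for 128 members. No coordinates are printed, because those builds differ from hg19. Host meant the gene on the same strand whose span holds the member.

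Named members were the 12 with the lowest p, the 10 with the highest mean, the 6 with the widest range, every SCARNA above 0 in all libraries and any that passed (0 did). Others were named after their values were seen, among them SCARNA13, SNORA74B and the members of shared hosts. The members and lists were chosen with earlier results of these data known.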

Additional observations from a re-analysis of the deposited data

How the results depend on the processing

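In all 13 alternatives 0 members were called in either direction; the lowest limma adjusted p of a member ran from 0.0855 (without mock clone 1) to 0.2881 (without NCCRP1 clone 6), and 2 to 18 members had an unadjusted p under 0.05. The median difference over the members, 0.109, was 0.093 with run as a term and 0.123 with libraries centred on their medians, a step that shifted no library by over 0.0547. With 1 clone left out it ran from -0.026 to 0.277. SCARNA8 ran from 0.871 to 1.302, SNORA28 from 0.397 to 0.633 and SNORA57 from -1.217 to -0.147. The lists of H/ACA proteins were not refitted. No paired analysis was possible because the groups share clone number 1 alone, which names a clone and ties no pair.

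Single differences were refitted for the 44 named members. Among these, with run as a term, 10 small, uncalled differences changed sign or reached 0: SNORA7A -0.116, SNORA7B -0.065, SCARNA18 -0.088, SCARNA15 -0.228, SCARNA2 0.092, SCARNA5 0.186, SCARNA1 (to 0), SCARNA9 -0.152, SCARNA9L -0.095 and SCARNA23 -0.058. Leaving out 1 clone in turn changed the sign of 20 of the 44, all uncalled, whose differences then ran from -0.159 to 0.469 for SNORA7A, from -0.121 to 0.278 for SNORA7B, from -0.04 to 1.116 for SCARNA18, from -0.06 to 1.022 for SCARNA15, from -0.452 to 0.11 for SCARNA2, from -0.394 to 0.224 for SCARNA5, from -0.072 to 0.399 for SCARNA1, from -0.22 to 0.27 for SCARNA9, from -0.204 to 0.458 for SCARNA9L, from -0.12 to 0.259 for SNORA64, from -0.284 to 0.528 for SCARNA20, from -0.053 to 0.068 for SCARNA16, from -0.102 to 0.457 for SCARNA23, from -0.358 to 0.362 for SNORA4, from -0.484 to 0.085 for SNORA67, from -0.205 to 0.238 for SNORA10, from -0.592 to 0.208 for SNORA19, from -0.033 to 0.331 for SCARNA7, from -0.329 to 0.185 for SCARNA27 and from -0.239 to 0.413 for SCARNA3.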

Other observations

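Among other small noncoding RNAs, the vault RNAs, short polymerase III transcripts of the vault particle, lay higher in the NCCRP1 clones without passing the test. VTRNA1-3 was at log2 RPKM 6.73, 7.40 and 7.53 in mock clones 1, 4 and 5, against 8.55, 7.98 and 8.39 in NCCRP1 clones 1, 6 and 17, with no overlap. Its difference was 1.08 (SE 0.24, limma adjusted p = 0.176). VTRNA1-1 did not overlap either, at a difference of 0.59 (SE 0.18, limma adjusted p = 0.379), and VTRNA1-2 overlapped, at 0.45 (SE 0.18, limma adjusted p = 0.59). All NCCRP1 clones lay above all mock clones for 5.71% of all genes tested. RMRP and RPPH1, the RNAs of the RNase MRP and RNase P enzymes, differed by -0.29 and -0.58, and the other 9 of 14 genes in this list were listed at 0 in every library.

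The stand-alone pseudouridine synthases, which modify RNA without a guide, had a median difference of -0.058 over 11 tested of 12, with 0 called. PUS3 was at 1.23, 1.14 and 1.67 in mock clones 1, 4 and 5, against 1.82, 1.85 and 1.89 in NCCRP1 clones 1, 6 and 17 (difference 0.50, SE 0.21, limma adjusted p = 0.631). PUS7 did not overlap in the other direction, at 3.49, 3.44 and 3.39 against 3.24, 3.34 and 3.38 (difference -0.12, SE 0.14, limma adjusted p = 0.952). Such a fall without overlap was found for 7.05% of all genes tested. The 4 box C/D core protein genes had a median difference of 0.071, with 0 called. Of all genes tested, 0.102% were called.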
